A study of Homo sapiens with 16 samples.

Results

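The response of NOMO-1 cells to the compound CS2 was set against their response to loss of FTO, gene by gene, in 13 of the 16 libraries of the series. For each gene the quantity tested was the change with CS2 (CS2 minus DMSO) minus the change with the hairpin (shFTO minus shNS). A positive difference of responses means that the gene moved further up, or less far down, with CS2 than with the hairpin. NOMO-1 cells are a human line of acute monocytic leukaemia. The CS2 group held 3 libraries of cells given 500 nM for 72 h, and the DMSO group 4 libraries of cells given that solvent for 72 h. Another 3 came from cells carrying a lentiviral hairpin against FTO (shFTO) and 3 from cells carrying the control hairpin (shNS), with puromycin at 1 µg/ml applied to both for 1 week. The labels name a single hairpin against FTO, and the series describes its replicates as biological. CS2 is presented there as an FTO inhibitor and is named there only by that code; here it is taken to be brequinar, which rests on what is generally known of the publication and not on the labels.

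FTO is an RNA demethylase that removes the N6-methyladenosine (m6A) mark from messenger RNA and is studied in acute myeloid leukaemia as a support of leukaemic growth. A hairpin lowers the amount of FTO messenger RNA, whereas an inhibitor leaves the protein in place and blocks its activity. Brequinar is known from other work as an inhibitor of DHODH, the mitochondrial enzyme of pyrimidine synthesis, and blocking DHODH is known to drive myeloid leukaemia cells towards maturation.

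Values are TPM, transcript abundances scaled to the same total in each library, and each change is a difference of log2(TPM + 1), so the changes of weakly expressed genes are understated. Of 26830 entries, 14951 reached 1 TPM in at least 3 of the 16 libraries and were tested, and a gene was called at an adjusted p below 0.05 over all of them. TPM hold no read counts, so the depth is unknown and no counting error can be given. Values after ± are SD over 3 libraries, or 4 for DMSO. The SD of the response over all tested genes was 0.74 for CS2 and 0.45 for the hairpin. The median response was 0.20 for CS2, 0.07 for the hairpin and 0.13 for their difference, so list medians below are given beside these. The controls were not alike: shNS against DMSO had 8462 genes called (56.6% of those tested). Exposure time, infection and selection thus differ between the arms as well as the agent, and cannot be told apart from it.

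Summed over 10 markers of the myeloid and monocytic line, the level was 1111 to 1151 TPM with CS2, 651 to 686 TPM with DMSO, 3000.2 to 3589.8 TPM with shFTO and 836 to 858 TPM with shNS, and 8 of the 10 were tested; CD14 and MPO stayed below 1 TPM in every library. Erythroid and megakaryocyte markers summed to at most 2.03 TPM in any of the 13 libraries, with HBA1 and GP9 at 0. Lymphocyte markers summed to 13.8 to 16.8 TPM with CS2, 11.7 to 13.6 TPM with DMSO, 22.3 to 24.4 TPM with shFTO and 10.97 to 12.5 TPM with shNS. CD3E was at 0 throughout, while NCAM1 rose with the hairpin (8.4, 8.9 and 8.49 TPM in shFTO libraries against 2.72, 2.94 and 2.73 TPM in shNS libraries). Epithelial and fibroblast markers summed to 8.73 to 10.6 TPM with CS2 and 5.29 to 8 TPM in the other groups, with EPCAM and KRT19 at 0. The part of such cells in the results below was not tested.

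The targeted gene itself separated the arms. FTO (chromosome 16, 53701692 to 54158512, GRCh38, GENCODE release 29) stood at 8.12, 7.49 and 8.35 TPM in the shFTO libraries against 31.3, 30.8 and 32.8 TPM in the shNS libraries. With CS2 it stood at 35.3, 34 and 33.3 TPM against 33.3, 33.1, 29.6 and 30.7 TPM with DMSO, and these ranges overlap. Its response to the hairpin was -1.86 (limma adjusted p = 7.38e-12) and its response to CS2 was 0.11 (adjusted p = 0.0936). The CS2 value turned negative under each of 4 other scalings tried (-0.12 to -0.05) and was called as a fall in 2 of them. The difference of responses was 1.97 (SE 0.0817, adjusted p = 4.86e-11).

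CS2 and the hairpin moved most genes by unequal amounts. The difference of responses was called for 9485 genes (63.4% of those tested), 5947 of them positive (39.8%) and 3538 negative (23.7%). At least a 2-fold difference was found for 2304 of them (15.4%), 1424 positive (9.52%) and 880 negative (5.89%). Set on a common scale by median-of-ratios factors, 5004 were positive and 4420 negative, and under quantile normalization 4843 and 4612, so the excess of positive calls depends on the scaling. CS2 against DMSO alone called 11079 genes (74.1%), 7405 up (49.5%) and 3674 down (24.6%). The hairpin comparison, shFTO against shNS, called 8437 (56.4%), 4776 up (31.9%) and 3661 down (24.5%). Of 6818 genes called in both, 4311 moved in the same direction and 2507 in opposite directions. Across all tested genes Pearson's r between both responses was 0.235 and Spearman's rank correlation 0.208; this describes genes of 4 groups with separate controls, and genes are not independent replicates.

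**Figure D1:**
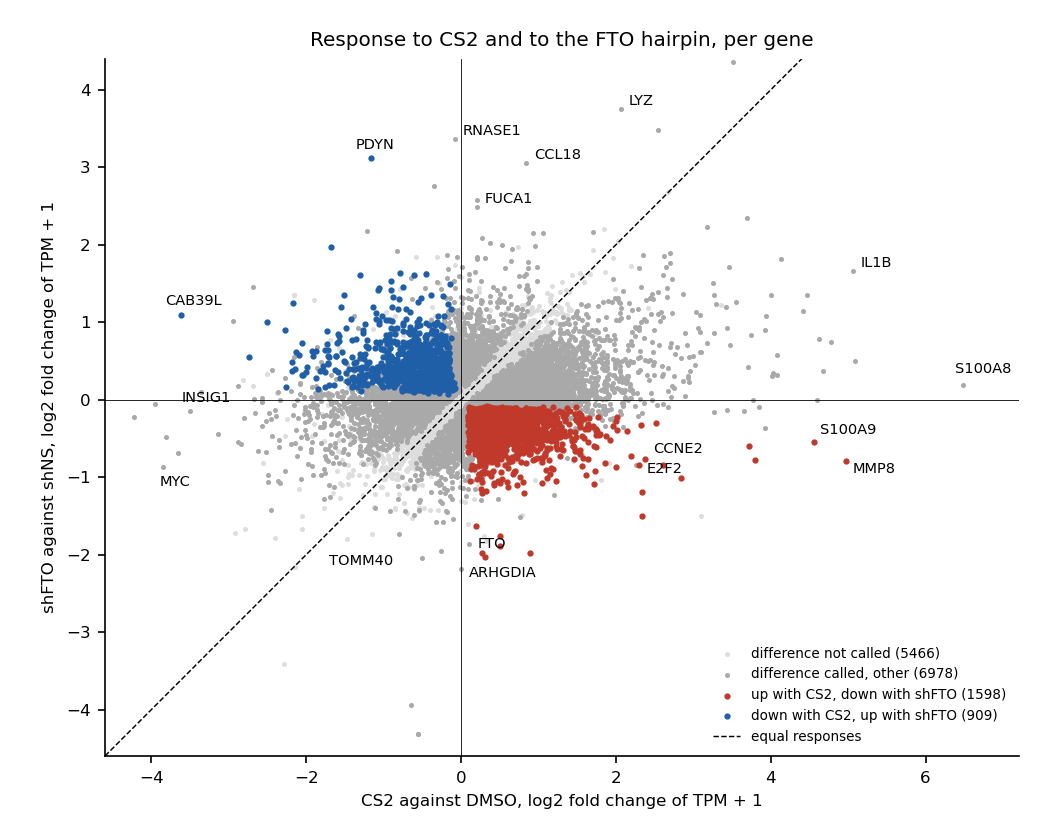
Response to CS2 (horizontal axis, log2 fold change of TPM + 1, CS2 against DMSO) and to the FTO hairpin (vertical axis, shFTO against shNS) for each of the 14951 tested genes, 1 dot per gene, with the dashed line marking equal responses. Red dots are the 1598 genes up with CS2 and down with shFTO, and blue dots the 909 genes down with CS2 and up with shFTO.

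Opposite movement required a call in CS2 against DMSO, a call of the other sign in shFTO against shNS, and a called difference. It was met by 2507 genes (16.8% of those tested). Of these, 1598 (10.7%) rose with CS2 and fell with the hairpin, and 1034 of them kept both calls after median-of-ratios scaling. The other 909 (6.08%) fell with CS2 and rose with the hairpin, and 651 kept both. Most of these movements were small: 376 genes moved by at least 0.5 in both responses and 23 by at least 1. A further 2389 genes (16% of those tested) moved in the same direction by unequal amounts, 1300 up more with CS2, 302 up more with the hairpin, 525 down more with CS2 and 262 down more with the hairpin. In several genes described below, such as CDC25A and MYC, shFTO replicate 3 lay nearer to shNS than the other shFTO libraries; without it 1770 genes rose with CS2 and fell with the hairpin and 914 did the reverse.

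DNA replication genes rose with CS2 and fell with the hairpin in larger number than the genes of any other list examined. Commitment to S phase runs through E2F transcription factors, which switch on cyclin E, the phosphatase CDC25A that activates the kinase CDK2, and the proteins that load and fire replication origins. Among 30 tested replication genes, 28 had a positive difference and 0 a negative one, against 39.8% positive over all tested genes. Their median response was 0.44 with CS2 and -0.65 with the hairpin, and the median difference was 0.92 against 0.13 over all genes. With CS2 22 rose and 4 fell, and with the hairpin 0 rose and 29 fell; 21 moved in opposite directions. After median-of-ratios scaling the CS2 counts were 17 and 6, and the hairpin counts did not change.

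The promoters of CDC6 from this list and of CDC25A, E2F1 and E2F2 from outside it are shown, since the 4 genes share a direction. E2F proteins bind such promoters at sites of varying letters, of which only TTGGCGC, called the core here, was searched. Each is the 250 bases before the RefSeq transcription start, 5′ to 3′ on the strand of the gene, in GRCh38.p14; capitals mark matches to the core on either strand. The CDC25A window lies at chr3:48188418-48188667 (minus strand), E2F2 at chr1:23531234-23531483 (minus), E2F1 at chr20:33686386-33686635 (minus) and CDC6 at chr17:40287629-40287878 (plus).
CDC25A: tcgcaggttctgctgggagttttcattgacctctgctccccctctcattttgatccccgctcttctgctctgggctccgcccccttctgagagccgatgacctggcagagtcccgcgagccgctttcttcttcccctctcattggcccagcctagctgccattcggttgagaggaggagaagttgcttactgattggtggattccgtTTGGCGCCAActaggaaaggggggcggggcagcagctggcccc
E2F2: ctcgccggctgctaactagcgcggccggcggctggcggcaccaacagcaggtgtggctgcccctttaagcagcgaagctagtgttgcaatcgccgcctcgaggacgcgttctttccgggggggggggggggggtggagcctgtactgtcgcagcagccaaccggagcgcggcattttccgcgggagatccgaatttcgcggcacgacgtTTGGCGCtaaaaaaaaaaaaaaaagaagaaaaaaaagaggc
E2F1: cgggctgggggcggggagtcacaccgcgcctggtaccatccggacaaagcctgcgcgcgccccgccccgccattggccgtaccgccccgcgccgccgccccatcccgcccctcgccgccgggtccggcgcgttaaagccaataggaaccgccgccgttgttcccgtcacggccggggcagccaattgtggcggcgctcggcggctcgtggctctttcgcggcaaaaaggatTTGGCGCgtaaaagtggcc
CDC6: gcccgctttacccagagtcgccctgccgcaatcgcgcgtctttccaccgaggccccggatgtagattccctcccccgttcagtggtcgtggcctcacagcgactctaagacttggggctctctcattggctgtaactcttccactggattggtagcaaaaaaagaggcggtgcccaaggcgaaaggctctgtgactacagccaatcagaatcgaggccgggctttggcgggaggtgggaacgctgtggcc
The CDC25A promoter holds 2 matches on opposite strands that overlap each other, E2F2 holds 1 and E2F1 holds 1. CDC6, like RFC2 and CHAF1B, holds 0 exact matches in this window, while its sequence has 3 copies of CCAAT on either strand. The CDC6 window does hold ttggcgg, which departs from the core in its last base. Such variants were not counted, so 0 matches does not show that E2F sites are absent. The core was found in 6.30% of 1238 promoters of genes up with CS2 and down with the hairpin, in 2.35% of 639 promoters of genes with the reverse pattern and in 3.91% of 10258 promoters of tested genes. Of 27 replication genes with a promoter sequence, 6 (22.2%) held it, against 3.91% of promoters of tested genes and 2.63% of all 27305 promoters. These shares describe letters in a window and were not tested. For comparison, the GC box GGGCGG was present in 71.2%, 66.4% and 64.2% of the same first 3 sets, and the E-box CACGTG bound by MYC in 9.13%, 11.9% and 8.94%. In the 27 replication promoters the shares were 74.1% for the GC box and 18.5% for the E-box. CCAAT was in 59.3% of these 27 and 35.1% of tested genes, and TGACGTC in 11.1% and 4.91%. AGGAAGT went the other way, with 3.7% and 7.3%. A higher share in the replication promoters was thus not particular to the E2F core.

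CDC25A (chromosome 3, 48157146 to 48188402) stood at 133, 129.5 and 138 TPM in the CS2 libraries against 60.9, 65.1, 65.8 and 64.8 TPM in the DMSO libraries. In the hairpin arm it stood at 19.1, 18 and 25 TPM in shFTO against 43.9, 45.4 and 43.5 TPM in shNS. Neither pair of groups overlapped, and every CS2 library lay above and every shFTO library below all others. The response was 1.04 with CS2 and -1.07 with the hairpin, a difference of 2.12 (SE 0.113, limma adjusted p = 5.79e-10). E2F2, an E2F activator (chromosome 1, 23506430 to 23531220), had 216, 218 and 227 TPM with CS2 against 44.5, 43.5, 44.2 and 44.9 TPM with DMSO, and 15.1, 14.9 and 19.9 TPM with shFTO against 30.3, 30.2 and 30.5 TPM with shNS. Its libraries fell in the same order, and the difference was 3.13 (SE 0.107, adjusted p = 8.17e-12). CCNE2, cyclin E2, had 261, 262 and 257 TPM with CS2 against 48.5, 49.5, 49 and 49.7 TPM with DMSO, and 14.2, 13.4 and 20.8 TPM with shFTO against 28.2, 27.5 and 27.2 TPM with shNS. The difference of 3.15 (SE 0.15) was the largest of the G1 list, and shNS minus DMSO was -0.81 on the log2 scale. E2F1 averaged 192 ± 1.96 TPM with CS2 and 50.1 ± 4.26 TPM with DMSO, against 36.2 ± 5.57 TPM with shFTO and 51.8 ± 0.341 TPM with shNS, a difference of 2.43.

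CDC6, which loads the replicative helicase onto origins, had 183, 184 and 182 TPM with CS2 against 65.8, 66.4, 64.6 and 67.3 TPM with DMSO, and 23, 21.7 and 28 TPM with shFTO against 36.1, 38.5 and 37 TPM with shNS. The CS2 libraries were the highest and the shFTO libraries the lowest, with a difference of 2.06 (SE 0.0927, limma adjusted p = 1.09e-10). RFC2, a subunit of the clamp loader that places PCNA on DNA, averaged 253 ± 1.82 TPM with CS2 and 118 ± 2.39 TPM with DMSO, and 59.9 ± 3.02 TPM with shFTO and 96.8 ± 2 TPM with shNS. CHAF1B, a chaperone that deposits histones behind the fork, showed the same order, with a response of 0.93 to CS2 and of -0.78 to the hairpin. MCM2 and POLD1, a helicase subunit and the catalytic subunit of polymerase delta, were the 2 members without a called difference (-0.02 and 0.14); they are named here after their values were seen.

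Regulators of G1 did not all move alike, and 8 of 19 rose with CS2 and fell with the hairpin. Of these 19 tested cyclins, kinases, E2F and RB family members and inhibitors of this phase, 14 had a positive and 4 a negative difference, with a median of 1.02 against 0.13 over all genes. CDK2, the partner of cyclin E, rose with CS2 (155 ± 1.75 TPM against 72.8 ± 1.52 TPM with DMSO) and fell with the hairpin (56.1 ± 3.73 TPM against 70.6 ± 0.786 TPM with shNS). CDKN1A, the inhibitor p21 that blocks CDK2, rose in both arms and more with CS2, with a difference of 2.91. It had 92.3, 91.5 and 119 TPM with CS2 against 6.82, 6.51, 6.04 and 6.85 TPM with DMSO, and 24.9, 23.3 and 34.1 TPM with shFTO against 15.4, 14.8 and 14.2 TPM with shNS. Activators and this inhibitor of S phase entry thus rose together with CS2, by 2.29 for E2F2 and 3.74 for CDKN1A.

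The enzymes that make deoxynucleotides followed the replication genes, with 6 of 7 tested members positive and 0 negative. RRM2, the small subunit of ribonucleotide reductase, had 1214, 1204 and 1170.4 TPM with CS2 against 515, 526, 479 and 495 TPM with DMSO, and 196, 185 and 259.8 TPM with shFTO against 266, 285 and 288 TPM with shNS. Both pairs were separate, and shNS minus DMSO was -0.85 on the log2 scale. Its partner RRM1 responded by 0.87 to CS2 and by -0.46 to the hairpin.

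In the pyrimidine list 11 of 17 members were positive and 4 negative, against 39.8% and 23.7% over all tested genes. After median-of-ratios scaling these counts were 10 and 5. With CS2 9 rose and 6 fell, which became 7 and 8 after that scaling. TK1, the thymidine kinase of the salvage route, averaged 280.1 ± 6.54 TPM with CS2 and 85.2 ± 1.57 TPM with DMSO, and 66 ± 9.75 TPM with shFTO and 83 ± 0.686 TPM with shNS. UPP1, which splits uridine into uracil, rose with CS2 (1.82) and had a hairpin response of -0.26 that was not called here but was called as a fall in 4 of 4 other scalings. UMPS, which completes UMP synthesis after DHODH, rose with CS2 (24.6 ± 0.551 TPM against 18.7 ± 0.64 TPM with DMSO) and fell with the hairpin (9.67 ± 0.552 TPM against 12.3 ± 0.257 TPM with shNS). DHODH itself, named here as the known target of brequinar and outside the selection rule, fell in both arms. It had 7.67, 8.79 and 9.03 TPM with CS2 against 18.8, 20.1, 20.8 and 19.9 TPM with DMSO, and 13.2, 11.1 and 14.2 TPM with shFTO against 22.3, 21.4 and 22.6 TPM with shNS. The fall was larger with CS2 (-1.14) than with the hairpin (-0.75), and the difference of -0.39 was called (limma adjusted p = 0.00455).

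Purine and one-carbon genes had 14 positive and 3 negative differences among 19, against 39.8% and 23.7% over all tested genes. Here the larger part of the movement was in the hairpin arm, where 0 rose and 18 fell, whereas with CS2 5 rose and 10 fell. After median-of-ratios scaling 11 differences were positive and 3 negative. The counts then were 4 up and 15 down with CS2, and 0 and 19 with the hairpin. The genes named next are all from the 5 that rose with CS2. PRPS1, which makes the phosphoribosyl donor of both purine and pyrimidine synthesis, averaged 235 ± 5.59 TPM with CS2 and 125 ± 1.22 TPM with DMSO, and 83.9 ± 3.35 TPM with shFTO and 131 ± 1.8 TPM with shNS. SHMT1, the cytosolic serine hydroxymethyltransferase, also rose with CS2 (1.12) and fell with the hairpin (-0.32), as did PHGDH, the first enzyme of serine synthesis (0.61 and -0.37).

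Mitotic genes had 22 positive and 2 negative differences among 25, with a median of 0.64 against 0.13 over all genes. With CS2 21 rose and 2 fell, which became 12 and 5 after median-of-ratios scaling; with the hairpin 1 rose and 15 fell, which became 1 and 20. UBE2C, the ubiquitin-conjugating enzyme of the anaphase-promoting complex, had 112, 110.4 and 109 TPM with CS2 against 64.9, 70.9, 67.4 and 63.6 TPM with DMSO, and 28.5, 25.4 and 25.1 TPM with shFTO against 60.1, 55.3 and 57.3 TPM with shNS. All shFTO libraries lay below all shNS libraries, and all CS2 libraries above all DMSO libraries. NUSAP1, a spindle protein, averaged 1068 ± 87.1 TPM with CS2 and 367 ± 25.8 TPM with DMSO, and 263 ± 7.59 TPM with shFTO and 321 ± 16.5 TPM with shNS. CDK1, the mitotic kinase, rose with CS2 (1.09) but had a hairpin response of 0.05 (limma adjusted p = 0.257), which turned sign in 2 of 4 other scalings.

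**Figure D2:**
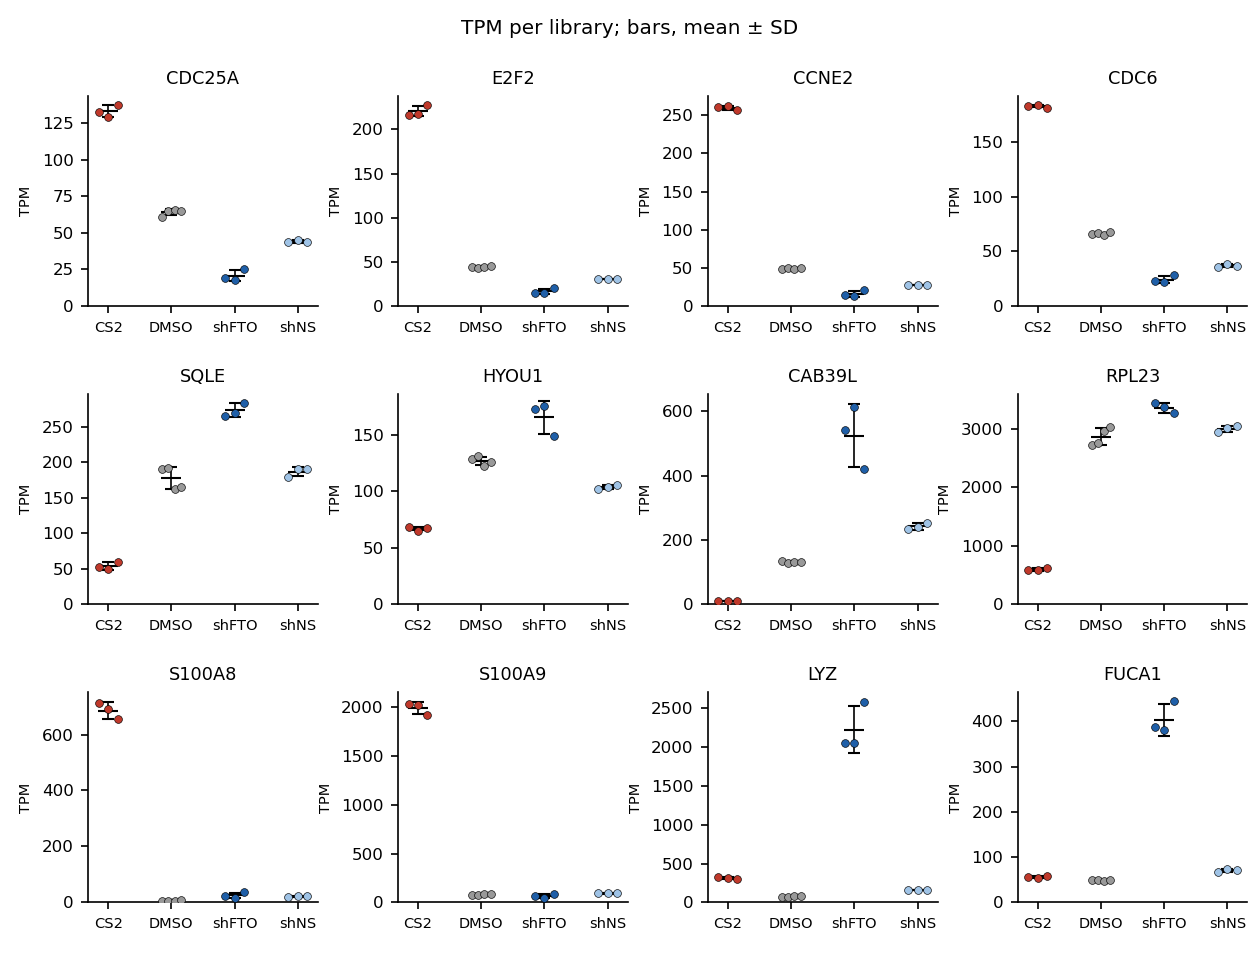
TPM of 12 genes in each CS2, DMSO, shFTO and shNS library (vertical axes, TPM, starting at 0), with dots for libraries and bars for the group mean ± SD. CDC25A, E2F2, CCNE2 and CDC6 are highest with CS2 and lowest with shFTO. SQLE, HYOU1 and CAB39L are lowest with CS2 and highest with shFTO, RPL23, S100A8, S100A9 and FUCA1 depart mainly in 1 arm, and LYZ is raised in both.

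Outside these lists, the genes that rose with CS2 and fell with the hairpin by the largest margins in both were of mixed function. Among them, OLFML3 responded by 2.34 to CS2 and by -1.50 to the hairpin, and ATP2B2 by 2.84 and -1.01. APOBEC3B, a cytidine deaminase acting on single-stranded DNA, had 309, 312 and 317 TPM with CS2 against 108, 99.6, 95.7 and 102 TPM with DMSO, and 55.1, 49.8 and 63.9 TPM with shFTO against 109, 111 and 112 TPM with shNS. The shFTO libraries were the lowest of all, and the shNS libraries lay near the DMSO libraries. CORO1C, an actin-binding coronin, averaged 215 ± 6.73 TPM with CS2 and 99.5 ± 2.87 TPM with DMSO, and 45.4 ± 2.38 TPM with shFTO and 92.3 ± 3.37 TPM with shNS. NDRG1, a gene induced by hypoxia and stress, responded by 1.23 and -1.05, a difference of 2.28 (SE 0.0486, limma adjusted p = 1.31e-13). RETN, the secreted protein resistin of myeloid cells, averaged 136 ± 11 TPM with CS2 and 40.2 ± 2.72 TPM with DMSO, and 70.6 ± 12.1 TPM with shFTO and 133 ± 5.26 TPM with shNS. For RETN the shNS libraries stood at the level of the CS2 libraries, and shNS minus DMSO was 1.70 on the log2 scale, so the opposite responses started from unequal controls.

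**Figure D3:**
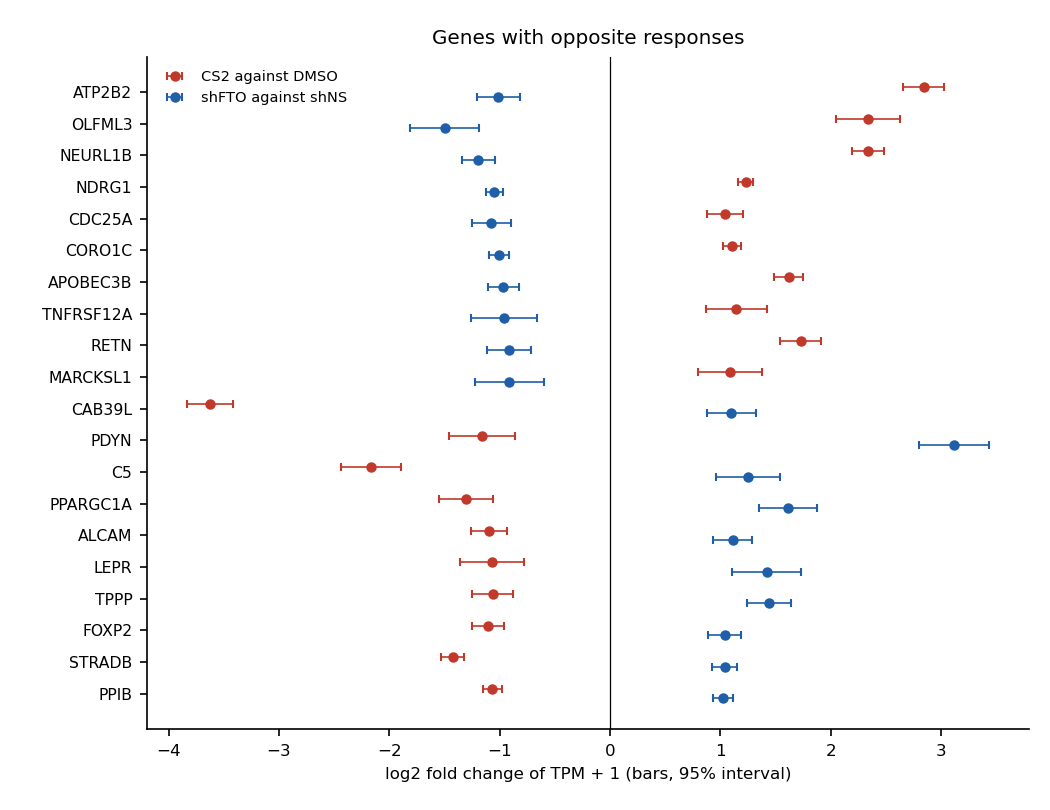
Responses of 20 genes with opposite movement (horizontal axis, log2 fold change of TPM + 1, dots with 95% interval), 10 per direction, CS2 against DMSO in red and shFTO against shNS in blue. The upper 10 genes lie right of 0 with CS2 and left of 0 with shFTO, and the lower 10 the other way round. CDC25A, of the upper 10, lies at 1.04 and -1.07, and CAB39L, of the lower 10, at -3.62 and 1.1.

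Cholesterol synthesis showed the reverse pattern. The pathway runs from acetyl-CoA through mevalonate and squalene to cholesterol, and its genes share control by SREBP2, which INSIG1 holds in the endoplasmic reticulum. Among 23 tested genes 2 had a positive and 18 a negative difference, against 23.7% negative over all tested genes, with a median of -0.99 against 0.13. With CS2 3 rose and 17 fell, with the hairpin 17 rose and 2 fell, and 12 fell with CS2 while rising with the hairpin. After median-of-ratios scaling the counts were 3 and 19 with CS2 and 14 and 3 with the hairpin.

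SQLE, the squalene epoxidase, had 52, 49.9 and 59.7 TPM with CS2 against 189.9, 191, 163 and 165 TPM with DMSO, and 266, 269.7 and 284 TPM with shFTO against 179.6, 190.4 and 190.1 TPM with shNS. Its control groups lay close together, the CS2 libraries were lowest and the shFTO libraries highest, and the difference was -2.25 (SE 0.0999, limma adjusted p = 9.79e-11). LSS, which closes squalene epoxide into lanosterol, had 20.6, 20.5 and 23.3 TPM with CS2 against 55.5, 51.8, 49.1 and 46.4 TPM with DMSO, and 69.4, 69.5 and 81.6 TPM with shFTO against 45.2, 47.1 and 45.4 TPM with shNS. DHCR7, the reductase of the last step, averaged 42.8 ± 3.14 TPM with CS2 and 108 ± 5.44 TPM with DMSO, and 161 ± 9.5 TPM with shFTO and 131 ± 4.58 TPM with shNS. Neither gene's groups overlapped in either arm. INSIG1 differed from these enzymes: it had 42.1, 41.6 and 44.5 TPM with CS2 against 523, 516, 477 and 471 TPM with DMSO, and 378, 379.6 and 501 TPM with shFTO against 439, 463 and 479 TPM with shNS. Its fall with CS2 (-3.51) was the steepest of the list in that arm, while its shFTO libraries overlapped the shNS libraries and the hairpin response of -0.15 was not called (adjusted p = 0.201), but was called in 2 of 4 other scalings.

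Chaperones and folding enzymes of the endoplasmic reticulum, which the unfolded protein response controls, mostly rose with the hairpin, and more of them fell than rose with CS2. Of 18 tested members 0 had a positive and 15 a negative difference, and 8 moved in opposite directions. With CS2 3 rose and 10 fell, and with the hairpin 15 rose and 0 fell; after median-of-ratios scaling these were 2 and 15, and 12 and 1. HYOU1, a large chaperone of the HSP70 family, had 68.2, 65.2 and 67.1 TPM with CS2 against 129, 131, 123 and 126 TPM with DMSO, and 172, 175 and 149 TPM with shFTO against 102, 104 and 105 TPM with shNS. All CS2 libraries lay below all others and all shFTO libraries above, with a difference of -1.58 (SE 0.0712, limma adjusted p = 1.09e-10). HSP90B1, the chaperone GRP94, averaged 292 ± 10.1 TPM with CS2 and 470.4 ± 1.35 TPM with DMSO, and 586 ± 58.8 TPM with shFTO and 400.2 ± 15.1 TPM with shNS. P4HB, protein disulfide isomerase, averaged 1159 ± 19.3 TPM with CS2 and 1605 ± 30.8 TPM with DMSO, and 2694 ± 93.4 TPM with shFTO and 1627 ± 39.7 TPM with shNS, and its fall with CS2 was called in 3 of 4 other scalings. PPIB, an isomerase of the same compartment that is not in the list, responded by -1.07 to CS2 and 1.02 to the hairpin, while shNS minus DMSO was -0.66 on the log2 scale.

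**Figure D4:**
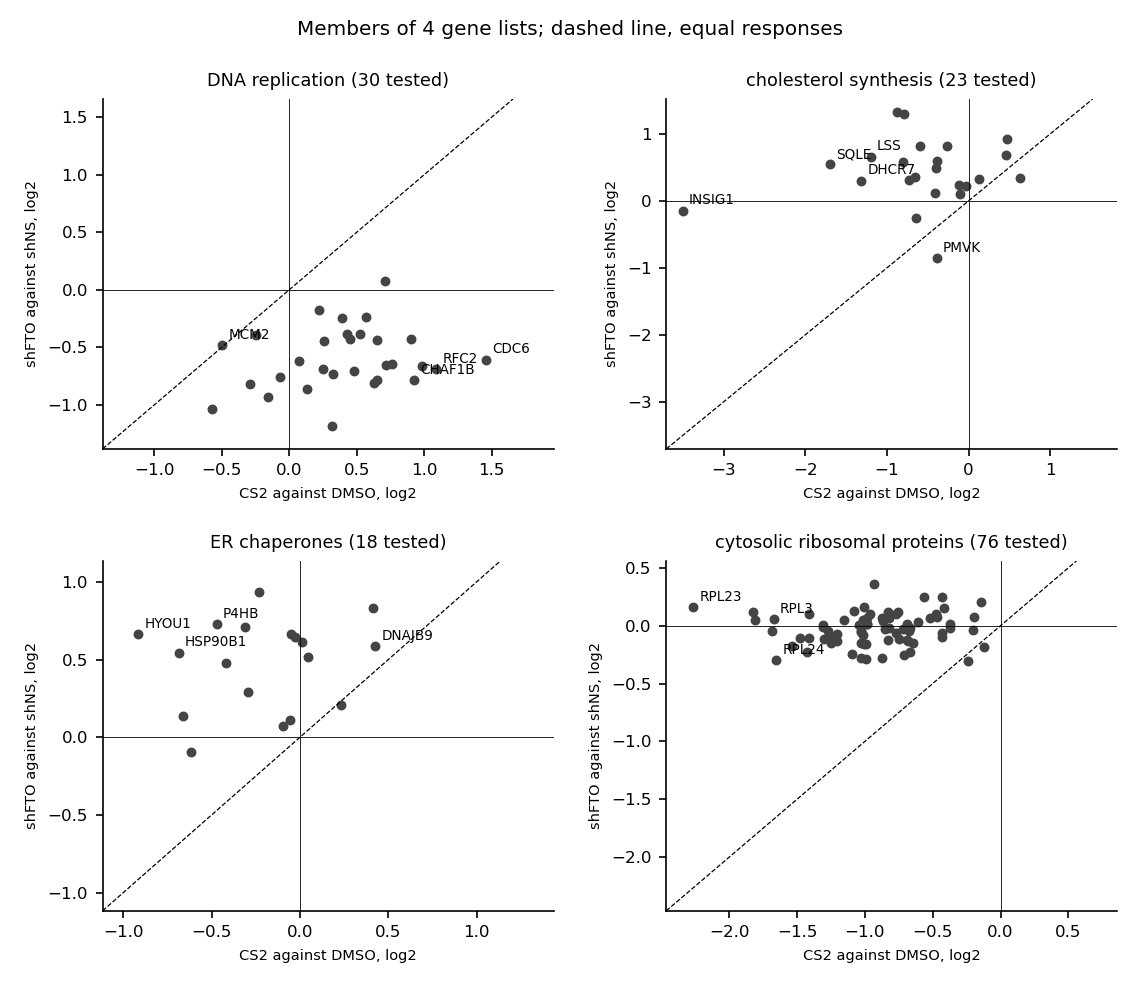
Response to CS2 (horizontal axes, log2 fold change of TPM + 1) and to the FTO hairpin (vertical axes) for the tested members of 4 gene lists, with the dashed line marking equal responses. DNA replication genes lie mostly right of 0 and below 0, cholesterol synthesis genes and ER chaperones mostly left of 0 and above 0, and ribosomal protein genes left of 0 and near 0 on the vertical axis.

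The largest fall with CS2 among genes that rose with the hairpin was that of CAB39L (chromosome 13, 49308650 to 49444126), which encodes MO25 beta, a scaffold of the kinase LKB1. It had 11, 9.85 and 8.6 TPM with CS2 against 136, 128, 131 and 133 TPM with DMSO, and 542, 613 and 419.6 TPM with shFTO against 233, 239 and 253 TPM with shNS. The lowest shFTO library was far above every shNS library, and all CS2 libraries were at or below 11 TPM. The difference was -4.72 (95% interval -5.03 to -4.42, limma adjusted p = 2.66e-12). STRADB (chromosome 2, 201387858 to 201480846), the STRAD beta pseudokinase of the same complex, had 8.31, 7.56 and 8.3 TPM with CS2 against 24.3, 22.1, 23 and 23.9 TPM with DMSO, and 30.3, 33.4 and 31.3 TPM with shFTO against 14.4, 15.6 and 14.8 TPM with shNS. Its difference was -2.46 (SE 0.0715, adjusted p = 1.94e-12), and here shNS lay below DMSO.

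Other genes of this direction were of mixed function. PDYN, the precursor of dynorphin peptides, had 0.17, 0.12 and 0.22 TPM with CS2 against 1.46, 1.38, 1.68 and 1.97 TPM with DMSO, and 19.3, 21.7 and 13.7 TPM with shFTO against 1.3, 0.82 and 1.5 TPM with shNS. Outside the shFTO libraries it did not pass 2 TPM. PPARGC1A, a coactivator of mitochondrial biogenesis, averaged 3.22 ± 0.649 TPM with CS2 and 9.38 ± 1.07 TPM with DMSO, and 16.2 ± 2.29 TPM with shFTO and 4.57 ± 0.339 TPM with shNS. The complement component C5 responded by -2.17 and 1.25, and the leptin receptor LEPR by -1.07 and 1.42. The adhesion protein ALCAM responded by -1.1 and 1.11. BMI1, a Polycomb protein of self-renewing cells, had 95.4, 90.3 and 79.1 TPM with CS2 against 416, 407, 362 and 373 TPM with DMSO, and 221, 238 and 217 TPM with shFTO against 137, 153 and 149.8 TPM with shNS. As shNS minus DMSO was -1.40 on the log2 scale, the shFTO libraries, although above shNS, were below DMSO. H1F0, the linker histone H1.0 of differentiating cells, averaged 19 ± 2.81 TPM with CS2 and 95.9 ± 9.21 TPM with DMSO, and 253 ± 14.1 TPM with shFTO and 135 ± 5.71 TPM with shNS.

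Among 9 tested checkpoint ligands and receptors 0 differences were positive and 4 negative, against 39.8% and 23.7% over all tested genes. With CS2 4 rose and 3 fell, and with the hairpin 8 rose and 1 fell. Only 2 of the 9 fell with CS2 while rising with the hairpin, TNFRSF14 among them. TNFRSF14, the receptor HVEM that binds BTLA on lymphocytes, had 6.98, 6.94 and 11.4 TPM with CS2 against 13.5, 12.8, 20.6 and 19.4 TPM with DMSO, and 100.3, 105 and 84.7 TPM with shFTO against 33.3, 30.8 and 33.9 TPM with shNS. Both pairs were separate, with a difference of -2.43 (SE 0.258, limma adjusted p = 8.49e-07). LILRB4, a checkpoint gene tied to FTO by earlier work, was not analysed here.

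Messenger RNAs of cytosolic ribosomal proteins fell with CS2 and as a group stayed near their control level with the hairpin. Of 76 tested members 0 differences were positive and 74 negative, with a median of -0.88. The median response was -0.91 with CS2, where 76 of 76 fell, and -0.03 with the hairpin, where 8 rose and 22 fell. Their summed share of TPM was 8.33% ± 0.11 with CS2 and 15.2% ± 0.73 with DMSO, against 17.6% ± 0.627 with shFTO and 17.7% ± 0.291 with shNS. As TPM sum to a fixed total, a smaller share here means by construction a larger share for all other genes together; with these entries and those of mitochondrial-like and ribosomal RNA left out, 4823 differences were positive and 4507 negative.

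RPL23 (chromosome 17, 38847865 to 38853843) of the large subunit had 581, 584 and 618 TPM with CS2 against 2712, 2759, 2954 and 3022 TPM with DMSO, and 3439, 3363 and 3261 TPM with shFTO against 2941, 3007 and 3038 TPM with shNS. The CS2 libraries were far below all others, and the small rise with the hairpin (0.16) was called in 1 of 3 other scalings. RPL3 averaged 574 ± 13.2 TPM with CS2 and 1833 ± 59.7 TPM with DMSO, and 2624 ± 122 TPM with shFTO and 2520.5 ± 30.7 TPM with shNS. The elongation factor EEF1A1, whose messenger RNA is controlled together with these, responded by -1.91 to CS2 and by -0.10 to the hairpin, the hairpin call being kept in 2 of 4 other scalings. Reads of ribosomal protein genes and of EEF1A1 can be shared with many processed pseudogenes, so single values are uncertain. Translation factors as a list had 3 positive and 15 negative differences among 24.

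Host genes of small nucleolar RNAs, noncoding transcripts many of which begin with the same pyrimidine tract as ribosomal protein messenger RNAs, had 1 positive and 11 negative differences among 13, with a median of -1.38. SNHG5 had 61, 58.6 and 67.7 TPM with CS2 against 616, 605, 679.5 and 693 TPM with DMSO, and 919, 966 and 827 TPM with shFTO against 845, 834 and 842 TPM with shNS. The CS2 mean was 0.0963 times the DMSO mean, and the hairpin response of 0.10 was not called. GAS5 fell with CS2 (83.1 ± 3.03 TPM against 345 ± 18.2 TPM with DMSO) and rose with the hairpin (729 ± 87 TPM against 581 ± 10.8 TPM with shNS). ZFAS1 did the same, by -1.45 and 0.40. Replication-dependent histone transcripts, most of which end without poly(A) and so are poorly captured by the selection used, had 0 positive and 11 negative differences among 16.

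Nucleolar and ribosome assembly genes stood in contrast, because they fell with both agents. Of 28 members 27 fell with CS2 and 28 with the hairpin, the median responses were -0.85 and -0.78, and 6 differences were positive and 9 negative. NPM1, an abundant nucleolar chaperone, was among the 9 with a larger fall with CS2: it averaged 839.9 ± 18 TPM with CS2 and 2614 ± 147 TPM with DMSO, and 1671 ± 25.5 TPM with shFTO and 1919 ± 38.7 TPM with shNS. TCOF1, the treacle protein of ribosomal RNA transcription, was the 1 member with a call in opposite directions (0.36 and -0.72), but its rise with CS2 was called in 1 of 4 other scalings.

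**Figure D5:**
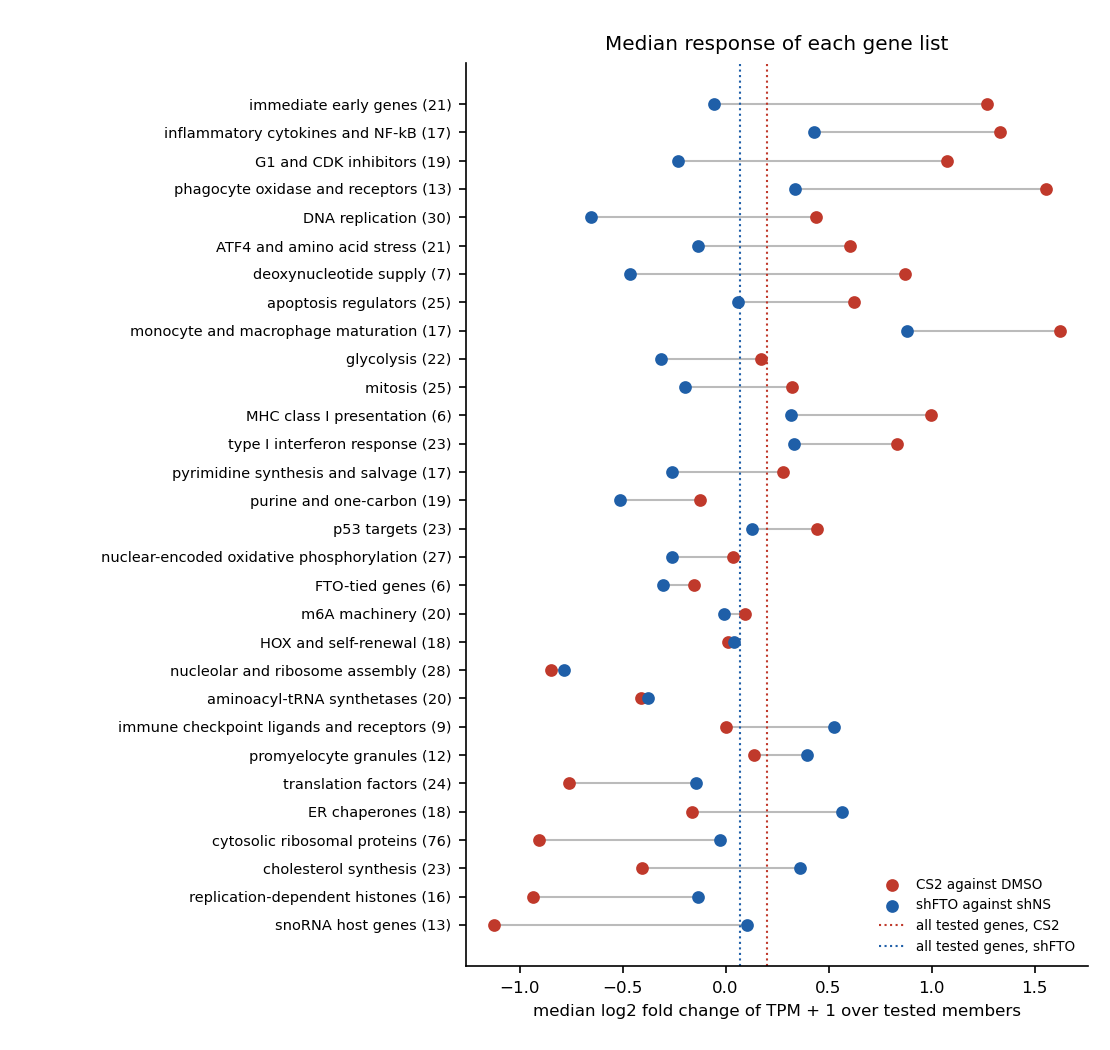
Median log2 fold change of TPM + 1 over the tested members of each gene list (horizontal axis), CS2 against DMSO in red and shFTO against shNS in blue, with the number of tested members in parentheses and dotted lines at the median of all tested genes (0.20 with CS2 and 0.07 with shFTO). The dots lie far apart for replication, G1, cholesterol, ER chaperone, ribosomal protein and snoRNA host genes, and close together for nucleolar genes.

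MYC, which drives ribosome assembly genes, fell in both arms by unequal amounts. It had 17.9, 19.2 and 22.1 TPM with CS2 against 280.3, 285, 307 and 317 TPM with DMSO, and 141, 127 and 209.6 TPM with shFTO against 281, 285 and 288 TPM with shNS. The control groups were near each other and both pairs were separate. The response was -3.85 with CS2 and -0.87 with the hairpin, a difference of -2.98 (SE 0.198, limma adjusted p = 5.64e-09).

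The list of genes that earlier work has tied to FTO had 6 tested members, MYC among them. All 6 had a called difference, 3 positive and 3 negative, against 63.4% called over all tested genes. CEBPA, a myeloid transcription factor, fell in both arms, with a response of -0.70 to CS2 and of -0.21 to the hairpin. ASB2, a ubiquitin ligase subunit of differentiating myeloid cells, averaged 73.3 ± 4.47 TPM with CS2 and 25.7 ± 1.11 TPM with DMSO, and 29.8 ± 1.08 TPM with shFTO and 26.6 ± 1.11 TPM with shNS. Its rise with the hairpin was called in 2 of 4 other scalings. RARA, the retinoic acid receptor alpha, rose with CS2 (1.15), and its hairpin response of 0.05 was not called and turned sign in 2 of 4 other scalings. Of the glycolytic enzymes among them, PFKP fell with the hairpin (75.7 ± 3.12 TPM against 116 ± 1.41 TPM with shNS) but had a CS2 response of 0.24 that was called in 1 of 4 other scalings. LDHB fell in both arms, with responses of -0.55 to CS2 and -0.39 to the hairpin.

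Of the m6A machinery, 9 of 20 members had a positive and 3 a negative difference, against 39.8% and 23.7% over all tested genes, and after median-of-ratios scaling 7 and 6. The largest was that of FTO itself. KIAA1429, the writer subunit also named VIRMA, fell with CS2 (-0.55) and had a hairpin response of 0.13 that was not called here but was called in 1 of 4 other scalings. IGF2BP3, a reader that stabilises m6A-marked RNA, averaged 43.2 ± 3.02 TPM with CS2 and 37 ± 2.81 TPM with DMSO, and 43.7 ± 2.95 TPM with shFTO and 21.4 ± 0.929 TPM with shNS. Its rise with the hairpin was 0.99, whereas the CS2 response of 0.22 was called in 0 of 4 other scalings.

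Both agents raised myeloid maturation genes, but different ones led in each arm. Among the largest rises with CS2 were genes of granulocytes and inflammatory monocytes. S100A8 (chromosome 1, 153390032 to 153391188), which forms calprotectin with S100A9, had 712, 690.4 and 654 TPM with CS2 against 5.39, 6.49, 6.2 and 9.13 TPM with DMSO, and 22.2, 17.3 and 36.1 TPM with shFTO against 18.9, 21.7 and 22.5 TPM with shNS. The CS2 libraries stood far above the rest and the shFTO and shNS ranges overlapped; the difference was 6.29 (SE 0.274, limma adjusted p = 7.92e-11). S100A9 had 2029, 2018 and 1916 TPM with CS2 against 80.9, 78.3, 85.8 and 87.9 TPM with DMSO, and 60.5, 48.8 and 90.7 TPM with shFTO against 99.9, 92.6 and 91.8 TPM with shNS. It thus rose with CS2 and fell a little with the hairpin (-0.55, adjusted p = 0.00437). MMP8, the collagenase of neutrophil granules, had 163, 154 and 154 TPM with CS2 against 4.21, 3.92, 4.02 and 3.98 TPM with DMSO, and 0.73, 0.8 and 1.12 TPM with shFTO against 2.31, 2.14 and 2.3 TPM with shNS, again rising in 1 arm and falling in the other.

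The collagenase MMP1 had 264, 253 and 357 TPM with CS2 against 7.15, 6.44, 8.25 and 8.3 TPM with DMSO, and 64.3, 51.1 and 94.8 TPM with shFTO against 48.5, 47.7 and 47.3 TPM with shNS. Here shNS minus DMSO was 2.52 on the log2 scale, and the hairpin response of 0.49 was called in 2 of 4 other scalings. GPR84, a receptor for medium-chain fatty acids, responded by 3.80 to CS2 and by -0.78 to the hairpin. AQP9, a glycerol and water channel of neutrophils, averaged 26.3 ± 2.22 TPM with CS2 and 0.0675 ± 0.033 TPM with DMSO, and 0.74 ± 0.347 TPM with shFTO and 0.323 ± 0.0115 TPM with shNS. GZMA, the protease granzyme A, had 29.2, 28.3 and 14.9 TPM in the CS2 libraries and was listed at 0 in all DMSO, shFTO and shNS libraries.

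Genes of the phagocyte oxidase and its receptors had 10 positive and 0 negative differences among 13. NCF1, the oxidase subunit p47phox, averaged 241 ± 13.2 TPM with CS2 and 17.4 ± 1.43 TPM with DMSO, and 14.3 ± 7.25 TPM with shFTO and 20.6 ± 0.645 TPM with shNS; it has near-identical pseudogene copies, so its level is uncertain. Inflammatory and NF-kB genes had 16 positive and 0 negative differences among 17, although 17 rose with CS2 and 12 with the hairpin, so 12 rose in both arms. IL1B, an inflammatory cytokine, had 73, 68.4 and 82.8 TPM with CS2 against 1.56, 1.14, 1.54 and 0.85 TPM with DMSO, and 7.25, 8.12 and 13.3 TPM with shFTO against 2.45, 2.44 and 1.89 TPM with shNS. It rose in both arms, by 5.07 with CS2 and 1.66 with the hairpin. The neutrophil attractant CXCL8 responded by 4.78 and 0.75, and the cytosolic DNA sensor AIM2 by 4.63 and 0.78. TNFAIP3, an inhibitor of NF-kB signalling, rose with CS2 (1.46) and was not called with the hairpin (0.06). CSF1R, the receptor for macrophage colony-stimulating factor, averaged 8.08 ± 0.392 TPM with CS2 and 0.637 ± 0.0846 TPM with DMSO, and 2.35 ± 0.645 TPM with shFTO and 0.98 ± 0.07 TPM with shNS.

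Some lysosomal and tissue macrophage genes were among those in which the hairpin led. They were taken as single genes and not counted as a list, and CSF1R, for example, rose more with CS2 (2.47 and 0.74). A rise with the hairpin together with a negative difference was called for 1884 genes (12.6% of those tested). LYZ (chromosome 12, 69348341 to 69354234), the bactericidal enzyme lysozyme, had 333, 316 and 305 TPM with CS2 against 71.3, 70.0, 81.9 and 78.2 TPM with DMSO, and 2049.7, 2048 and 2579 TPM with shFTO against 166, 163 and 159 TPM with shNS. All 3 CS2 libraries exceeded the shNS libraries, and the shFTO libraries exceeded everything else, giving responses of 2.06 and 3.76 and a difference of -1.69 (SE 0.107, limma adjusted p = 3.19e-09). FUCA1 (chromosome 1, 23845077 to 23868294), a lysosomal fucosidase, had 56.8, 52.9 and 58.8 TPM with CS2 against 49, 48.5, 46.8 and 49.7 TPM with DMSO, and 387, 379.9 and 444 TPM with shFTO against 67, 72.8 and 72.5 TPM with shNS. Its rise with the hairpin was 2.49, while its CS2 response of 0.21 was called in 0 of 4 other scalings. In bulk libraries, fewer cells of a type and less RNA per cell cannot be told apart.

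Others of these genes were weak outside the shFTO libraries. CCL18, a chemokine of macrophages, had 1.39, 1.5 and 1.91 TPM with CS2 against 0.21, 0.28, 0.74 and 0.62 TPM with DMSO, and 95.2, 89.5 and 119 TPM with shFTO against 11.6, 12.3 and 9.76 TPM with shNS. RNASE1, a secreted ribonuclease, had 0.41, 0.22 and 0.57 TPM with CS2 against 0.29, 0.53, 0.7 and 0.42 TPM with DMSO, and 42.8, 41.9 and 41 TPM with shFTO against 2.99, 3.23 and 3.31 TPM with shNS. Both genes were already higher in shNS than in DMSO, by 3.08 and 1.5. SIGLEC1, the macrophage receptor CD169, rose with the hairpin (1.86) and was not called with CS2 (-0.18), although 3 of 4 other scalings called a fall. The adhesion receptor ADGRE1 responded by 2.03 to the hairpin and by 0.37 to CS2, the CS2 call being kept in 2 of 4 other scalings. AOAH, which deacylates bacterial lipopolysaccharide, and the gelatinase MMP2 rose with the hairpin by 2.09 and 1.82, and their CS2 calls were kept in 0 of 4 other scalings. The lysosomal protease CTSS rose in both arms and more with the hairpin (1.26) than with CS2 (0.37).

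Over the list of 17 tested monocyte and macrophage maturation genes, 17 rose with CS2 and 14 with the hairpin, and 11 differences were positive and 3 negative. FCN1, the lectin ficolin-1 of monocytes, averaged 108 ± 5.44 TPM with CS2 and 34.4 ± 1.52 TPM with DMSO, and 31.5 ± 1.31 TPM with shFTO and 40.7 ± 0.817 TPM with shNS, and so moved apart from LYZ in the hairpin arm. ITGAM, the integrin subunit CD11b, rose with CS2 (2.75), and its hairpin rise of 0.30 was called in 3 of 4 other scalings. SPI1, the transcription factor PU.1, responded by 0.46 to CS2 and by -0.13 to the hairpin.

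Granule genes of promyelocytes leaned the other way, with 3 positive and 9 negative differences among 12. MS4A3, a membrane protein of granulocyte precursors, averaged 2.05 ± 0.263 TPM with CS2 and 9.62 ± 1.24 TPM with DMSO, and 4.96 ± 0.763 TPM with shFTO and 3.55 ± 0.394 TPM with shNS. Its hairpin call was kept in 1 of 4 other scalings. RNASE2, an eosinophil and monocyte ribonuclease, was 1 of the 3 positive members, with 1012 ± 60.2 TPM with CS2 and 249.3 ± 9.48 TPM with DMSO, and 301 ± 64.6 TPM with shFTO and 208 ± 5.59 TPM with shNS. The alpha-defensin entries DEFA1 and DEFA1B, near-identical copies with identical values here, were listed at 0 in all CS2 and shFTO libraries, at 0.92, 0.54, 0.4 and 0.14 TPM in DMSO and at 18.9, 16.6 and 21.4 TPM in shNS. As the genes cannot be told apart, their value is uncertain.

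Several genes of basic cell functions fell further with the hairpin than with CS2. ARHGDIA (chromosome 17, 81867721 to 81871406), an inhibitor of small GTPase cycling, had 429, 423 and 428 TPM with CS2 against 413, 417, 429.8 and 454 TPM with DMSO, and 60.1, 58.3 and 70.5 TPM with shFTO against 282, 299 and 286 TPM with shNS. Its hairpin response of -2.18 was larger in size than that of FTO itself (-1.86, a comparison of 2 estimates that was not tested), its CS2 response was -0.01, called as a fall in 3 of 4 other scalings (-0.24 to -0.07 over the 4), and the difference was 2.18 (SE 0.0842, limma adjusted p = 2.53e-11). TRMT112, an activator of several methyltransferases, had 97.9, 98.4 and 102 TPM with CS2 against 115, 118, 121 and 123 TPM with DMSO, and 27.1, 28 and 27.3 TPM with shFTO against 108, 109.5 and 111 TPM with shNS. The 3 shFTO libraries lay close together, their mean being 0.251 times the shNS mean. TOMM40, the import pore of the outer mitochondrial membrane, averaged 186 ± 10.6 TPM with CS2 and 265 ± 18.5 TPM with DMSO, and 39.3 ± 3.46 TPM with shFTO and 165 ± 2.21 TPM with shNS. The proteasome activator PSME3 and the transcription factor subunit GTF2F2 responded by -1.59 and -1.45 to the hairpin, against -0.24 and -0.18 to CS2. As there was 1 hairpin, falls that come from loss of FTO and falls that come from its sequence acting on other transcripts cannot be told apart. PSAT1, an enzyme of serine synthesis, also fell with the hairpin (85.3 ± 15.3 TPM in shFTO and 201 ± 1.86 TPM in shNS); its CS2 response of 0.06 was not called, but was negative in 4 of 4 other scalings and called as a fall in 2.

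Lists of stress, death and immune response genes had more positive than negative differences, as did all tested genes (39.8% and 23.7%). Immediate early genes, which respond to signals within minutes, had 17 positive and 0 negative differences among 21, and 16 and 2 after median-of-ratios scaling. ATF3, a stress transcription factor of that list, averaged 26.3 ± 4.72 TPM with CS2 and 2.55 ± 0.405 TPM with DMSO, and 5.5 ± 0.639 TPM with shFTO and 4.35 ± 0.437 TPM with shNS. Apoptosis regulators had 16 positive and 2 negative differences among 25, which became 16 and 5 after median-of-ratios scaling. The initiator caspase CASP8 rose with CS2 (1.36) and was not called with the hairpin (0.01). Of 21 ATF4 and amino acid stress genes 15 differences were positive and 4 negative: TRIB3, a pseudokinase induced by ATF4, responded by 1.55 to CS2 and by -0.13 to the hairpin, a value called in 2 of 4 other scalings but not here. Targets of p53 lay nearer to the background, with 11 positive and 6 negative differences among 23 against 39.8% and 23.7% over all tested genes. With CS2 15 rose and 3 fell, against 49.5% and 24.6% over all tested genes, and with the hairpin 8 rose and 6 fell. XPC, a DNA damage sensor, was among the 3 that fell with CS2, and it fell further with CS2 (-1.64) than with the hairpin (-0.56).

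Interferon response genes had 13 positive and 1 negative difference among 23, against 39.8% and 23.7% over all tested genes. With CS2 18 rose and 1 fell, and with the hairpin 14 rose and 1 fell. Over all tested genes 49.5% rose with CS2 and 31.9% with the hairpin. After median-of-ratios scaling 13 differences were positive and 4 negative. ISG15, a ubiquitin-like protein, averaged 57.2 ± 3.32 TPM with CS2 and 16.2 ± 0.798 TPM with DMSO, and 17.5 ± 1.12 TPM with shFTO and 23.4 ± 0.605 TPM with shNS, so it moved in opposite directions. It was the 1 member of the list that fell with the hairpin. OAS3, a sensor of double-stranded RNA, rose with CS2 (1.83) and was not called with the hairpin (-0.08). In class I antigen presentation 6 of 6 tested members were positive, which became 4 after median-of-ratios scaling. B2M, the light chain, averaged 5121 ± 207 TPM with CS2 and 2517 ± 13 TPM with DMSO, and 5539 ± 229 TPM with shFTO and 3898 ± 67.1 TPM with shNS; the peptide transporter TAP1 responded by 1.19 and 0.12.

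Genes of energy metabolism fell with the hairpin more often than they rose. Glycolysis genes had 15 positive and 5 negative differences among 22, with 5 rising and 11 falling with the hairpin. SLC2A3, the glucose transporter GLUT3, rose in both arms and further with CS2 (1.70 and 0.44). Nuclear-encoded genes of oxidative phosphorylation had 19 positive and 2 negative differences among 27; with the hairpin 0 rose and 21 fell, and with CS2 10 rose and 7 fell, which became 4 and 19 after median-of-ratios scaling. UQCRC1, a core subunit of complex III, averaged 365 ± 12.6 TPM with CS2 and 289 ± 3.04 TPM with DMSO, and 278 ± 0.885 TPM with shFTO and 349 ± 6.56 TPM with shNS. NDUFA9 of complex I fell with the hairpin (-0.49), and its CS2 response of 0.20 was called in 0 of 4 other scalings.

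Not every shared response had a called difference, which does not by itself show equal responses. Of the 4311 genes that moved in the same direction in both arms, the difference was not called for 1922. For 2124 of the 4311, called or not, its 95% interval lay within 0.5 of 0 on the log2 scale. This bounds how far apart those responses could be in these libraries. The bound is wide beside the median absolute response, 0.43 with CS2 and 0.25 with the hairpin over all tested genes. HOX and self-renewal genes had 5 positive and 7 negative differences among 18. Their median responses were 0.01 with CS2 and 0.04 with the hairpin, values that come from members going both ways and not from equal responses.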

How the data were processed

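Poly(A)-enriched RNA of NOMO-1 cells was sequenced by the authors. The values are TPM as deposited by the authors, 1 column per library; RSEM 1.2.31 and the build GRCh38 were used per the submitters' processing notes. Not given in the sources used here are the aligner and the annotation. TPM are relative to each library's total, so a large loss in abundant genes raises the others.

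A linear model with a mean for each group was fitted to log2(TPM + 1) of all 16 libraries with limma 3.58.1 (R 4.3.3; moderated with a mean-variance trend), with no further scaling. A pseudocount of 1 was used and genes needed 1 TPM in 3 libraries. Tests were two-sided with Benjamini-Hochberg adjustment over 14951 genes and a threshold of 0.05. The test was first tried on simulated data. Other steps used Python 3.11.15. The 16 columns were assigned by name, and 0 pairs of libraries were identical. Pearson's r between replicates, across genes, was 0.9877 to 0.993.

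The comparison, the members and the gene lists were chosen with earlier results of these data known, so counts over lists are descriptions. They are to be read beside the 39.8% positive and 23.7% negative differences over all tested genes. Named genes were taken by rule: FTO, the largest differences in each direction, the largest opposite movements that survived rescaling and had separate libraries, the largest same-direction differences, the largest responses to the hairpin alone, and per list the members with the smallest p, all of the FTO-tied list. Candidates outside the lists were protein coding with a mean of at least 5 TPM in some group. DHODH, MCM2 and POLD1, and some markers of other cell types, are named outside the rule; a few genes that the rule takes are not reported here. Promoters are RefSeq sequences of GRCh38.p14, matched by symbol. Alternatives were other scalings, pseudocounts, filters, no trend, no CS1 libraries, a replicate block and leaving out each library. Replicate numbers were not treated as pairs.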

Additional observations from a re-analysis of the deposited data

Results flagged for a closer look

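In groups of 4 libraries the sample farthest from the rest was checked with Dixon's test at its 95% critical value, in 123 sets of values; chance flags about 1 in 20 such sets. The share of TPM in mitochondrial-like entries was flagged in the DMSO group, because replicate 2 stood at 8.394% and the others at 8.042% to 8.102%. Only the DMSO group has 4 libraries, so the other groups were not checked.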

How the results depend on the processing

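The count of genes whose responses differ stayed within 1.5 times its main value of 9485 in every alternative tried, except when at least a 2-fold difference was asked for in addition. That rule left 2304 genes, 1424 positive and 880 negative, and 583 up with CS2 and down with the hairpin and 435 with the reverse pattern. Scaling mattered for direction: the split of 5947 positive and 3538 negative became 5004 and 4420 with median-of-ratios scaling, 4875 and 4684 with a common median, 4843 and 4612 under quantile normalization, and 4823 and 4507 with ribosomal and mitochondrial-like entries left out. Opposite movement, 1598 up with CS2 and down with the hairpin and 909 the other way, also depended on the setting. Over the scalings, pseudocounts and filters the first count ranged from 1260 with those entries left out to 1618 with a pseudocount of 0.1. The second ranged from 795 with a filter of 5 TPM in 3 libraries to 1245 with those entries left out. Leaving out 1 library at a time gave 9094 to 9618 differences, 5657 to 6169 positive and 3351 to 3539 negative, and 1406 to 1770 and 792 to 914 opposite movements. With a replicate block the counts were 9534, 5915 and 3619, and 1584 and 937; of 18 same-numbered pairs 0 had a correlation of deviations above 0.1 (-0.0542 to 0.0846), so the numbers were not read as pairs. For 118 named genes, all 2826 values of the difference of responses kept their direction and side of the threshold. These genes were chosen mainly by large differences or small p, and some for surviving rescaling. Their stability was thus largely fixed by the choice and does not extend to other genes. Responses within 1 arm did not all keep direction and call, among them the hairpin rise of AQP9, called in 3 of 4 other scalings. The depth is unknown, so precision rests on the spread between libraries alone. The cause of the dependence on scaling was not tested.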
